A study of Saccharomyces cerevisiae with 11 samples.

Results

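The SCC2 variant R787G was set against SCC2 WT in budding yeast (Saccharomyces cerevisiae), by total RNA sequencing of 3 R787G and 3 WT cultures. These 6 libraries were taken by their labels from the 11 libraries of the series. The other 5 libraries, 3 of the variant G1242V and 2 of the empty vector (NULL), shared the estimate of the spread and were compared with R787G at the end. All 7035 usable features of the deposited table were considered, of which 6432 passed the filter on low values and were tested.

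All 4 groups were in the W303 background, of mating type a (MATa), with the alleles can1-100, trp1-1, ade2-1 and his3-11,15 and the leu2 allele usual in this background. In every one of them the chromosomal SCC2 was tagged (SCC2-AID*-6FLAG-HYG), and OsTIR1 was expressed from the ADH1 promoter at ura3-1 (ura3-1::ADH1-OsTIR1(pMK200,URA3)). OsTIR1 directs proteins with the AID tag to degradation once auxin is present. The groups differed by their HIS3-marked plasmid. R787G carried pRS413-scc2-R787G-7MYC-HIS, G1242V carried pRS413-scc2-G1242V-7MYC-HIS, NULL carried the empty pRS413-HIS, and WT carried pRS413-SCC2-7MYC-HIS. All cultures grew in SD-HIS and had 1 mM of the auxin IAA for 9 h, so no group without auxin or without the degron enters here. The labels describe the replicates as separate cultures and do not say whether they were separate transformants, so the p-values measure the spread between cultures.

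Scc2 and its partner Scc4 load cohesin, a ring of proteins, onto DNA, and Scc2 stimulates the ATPase of the ring. Cohesin holds sister chromatids together and extrudes chromatin loops, and changes in its human relatives, the loader NIPBL included, underlie Cornelia de Lange syndrome. The SCC2 gene (YDR180W) lies on chromosome IV from 821295 to 825776 on the plus strand (R64, the assembly also called sacCer3). The codon that the variant changes is shown because it is the difference that the labels name between the plasmids of R787G and WT. In the R64 genome SCC2 has 1494 codons, the stop codon included, and the codon that R787G names, counted from the start codon, is AGA for arginine at 823653 to 823655. It is given in capitals in its coding-strand context, chrIV:823623-823685. The codon used for glycine on the plasmid is not given in the sources used here.
SCC2 around the R787G codon: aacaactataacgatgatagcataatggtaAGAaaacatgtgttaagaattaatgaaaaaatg

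The deposited values are TPM, transcript abundances per length that sum to a fixed total in each library. They keep no sequencing depth, which is unknown. Levels below are scaled TPM, which are TPM multiplied by 1 factor per library (0.964, 0.974 and 0.999 in R787G, against 1.05, 1.03 and 1.06 in WT). Changes are log2 fold changes of R787G over WT from limma on log2(scaled TPM + 1), a scale that understates changes of low genes. Pearson's r of log2 levels across genes was 0.984 to 0.996 within the groups and 0.916 to 0.940 between R787G and WT libraries. WT replicate 2 held 9.15% of its TPM in ribosomal RNA, against 0.155% to 0.494% in the other 10 libraries. Genes with near-identical copies (ribosomal protein, PAU, TDH, EFT, SSB and histone genes) share short reads, so their split between copies is uncertain.

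Whole chromosomes stood apart in single libraries. The median gene of chromosome I (90 genes) lay 0.068, -0.49 and -0.53 from the WT mean on the log2 scale in R787G replicates 1, 2 and 3, against 0.47, -0.43 and -0.0091 in WT replicates 1, 2 and 3. The median gene of chromosome IX (214 genes) lay at -0.033, -0.0050 and 0.45 in R787G, against -0.024, 0.025 and 5.87e-05 in WT. The groups thus overlapped on chromosome I, and R787G replicate 3 alone was high on chromosome IX. On the other 14 nuclear chromosomes each library's median lay between -0.040 and 0.13. Without chromosomes I and IX, 4125 of 6128 features passed the threshold. No gene named here with its values lies on either chromosome, and without the genes of both, 5 of 148 counts of higher or lower members of the 74 gene lists used below moved by over 1.5 times, and 1 list median, that of purine synthesis, changed sign.

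**Figure D1:**
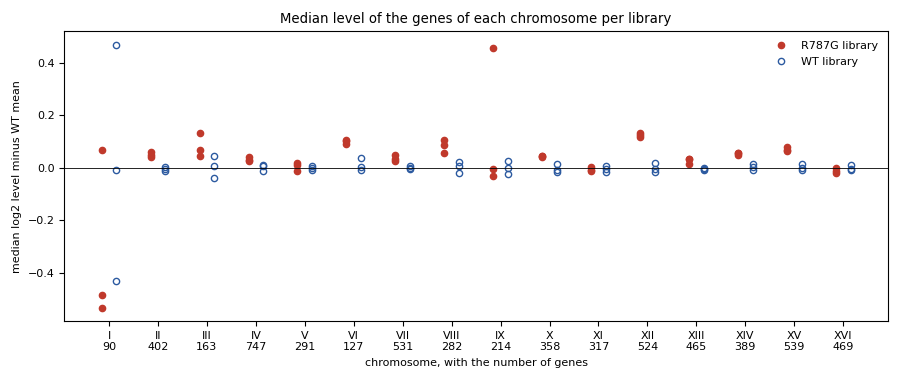
Median over the genes of each nuclear chromosome of log2(scaled TPM + 1) minus each gene's WT mean, for the 3 R787G libraries (filled) and the 3 WT libraries (open), with the number of genes under each chromosome. Chromosome I spreads from -0.53 to 0.47 over the libraries of both groups, and R787G replicate 3 lies at 0.45 on chromosome IX.

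SCC2 RNA did not differ detectably between the alleles. It had 100.4, 132 and 105 scaled TPM in R787G, against 126, 101 and 108 scaled TPM in WT, and the log2 fold change was 0.0095 ± 0.13 (SE; adjusted p = 0.951). The groups overlapped, and leaving out single libraries turned its sign. This value sums the chromosomal degron copy and the plasmid copy, which share their sequence, so it says nothing of either alone. In NULL, without a plasmid copy, SCC2 averaged 23.2 scaled TPM. HIS3, the marker of the plasmid, had 813, 1109 and 803 scaled TPM in R787G, against 986, 639 and 869.9 scaled TPM in WT, a log2 fold change of 0.13 ± 0.19 (SE; adjusted p = 0.543). Its groups overlapped as well.

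In the list of 9 genes for the cohesin ring, its loader and its regulators, 6 rose in R787G and 1 fell, which was the loader subunit SCC4, and the other 2 did not pass the threshold. SCC4, the partner of SCC2, had 21.9, 23.4 and 21.5 scaled TPM in R787G, against 33.3, 33.4 and 28.9 scaled TPM in WT, a log2 fold change of -0.49 ± 0.066 (SE; adjusted p = 1.15e-04). MCD1, the kleisin subunit that separase cleaves, had 47, 48.6 and 48 scaled TPM in R787G, against 17.6, 17.9 and 22.3 scaled TPM in WT, a log2 fold change of 1.28 ± 0.099 (SE; adjusted p = 3.94e-06). SMC3, one of the ATPase arms of the ring, had 34.5, 32.2 and 34.5 scaled TPM in R787G, against 14.3, 12.7 and 13.6 scaled TPM in WT, a log2 fold change of 1.26 ± 0.097 (SE; adjusted p = 3.94e-06). None of these 3 genes overlapped between the groups. The median of the list was 0.77, and 0.60 without the genes of chromosomes I and IX. In G1242V and NULL the list medians against WT were 0.63 and 0.86. SCC4 was lower than in WT there too, at -0.77 and -0.51, and MCD1 higher, at 1.34 and 0.77. Compared directly, 3 of the 9 genes were higher and 0 lower in R787G than in G1242V, and 2 higher and 2 lower than in NULL. Of all 6432 features, 65.8% passed the threshold (adjusted p under 0.05 in limma), 36.5% being higher and 29.3% lower in R787G, and the median was 0.067.

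The comparison called 4234 features, 2347 higher and 1887 lower in R787G. Rises made up 55.4% of the calls, a share that depended on the scaling. It was 64.2% on unscaled TPM, 58.9% on TPM rescaled to nuclear coding genes and 50.3% after quantile normalization. The median of all features was 0.16, 0.098 and -0.0078 in these settings, in place of 0.067. At least 2-fold changes numbered 489 higher (7.6% of features) and 393 lower (6.11%). The groups did not overlap for 4565 features (71%). Genes named for the size of their change had to have the libraries of both groups apart, so their separation is fixed by that choice. The filter on low values was met in R787G and not in WT by 189 features, of which 140 were called higher, and in WT and not in R787G by 30, of which 12 were called lower. Such features entered the test through the libraries where they are high. With nearly all gene lists holding called members, each list below is read against these shares.

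**Figure D2:**
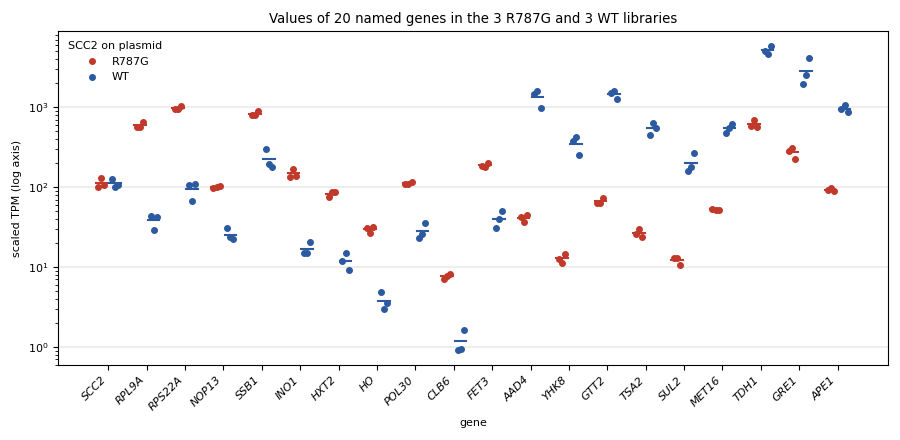
Scaled TPM on a log axis of 20 genes named in the text, one point per library, with R787G left of WT for each gene and a bar at each group's mean (n = 3 each). The groups overlap for SCC2 and are apart for the other 19 genes, some of which were chosen with that as a condition.

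The cytosolic ribosomal proteins, the structural proteins of the translating ribosome, had the highest medians of the 74 gene lists. Together their genes held 12.6, 12.6 and 13.8% of all TPM in R787G, against 2.54, 1.95 and 2.33% in WT. The R787G libraries held the larger share in every case. Of the 82 large-subunit genes tested, 80 rose and 0 fell, with a median log2 fold change of 2.53. Of the 80 rises, 1 met the filter on low values in R787G and not in WT. Of the 56 small-subunit genes, 56 rose, with a median of 2.60.

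RPL9A, for a protein of the large subunit, was the largest rise of the 12 named for size. It had 563, 569 and 654 scaled TPM in R787G, against 44.1, 29.4 and 42.8 scaled TPM in WT, a log2 fold change of 3.92 ± 0.21 (SE; adjusted p = 9.63e-07). RPS22A, for a protein of the small subunit, had 962, 953 and 1038 scaled TPM in R787G, against 106, 67.6 and 109 scaled TPM in WT, a log2 fold change of 3.40 ± 0.23 (SE; adjusted p = 1.67e-06). RPS31, which encodes ubiquitin fused to a small-subunit protein, had 3274, 3296 and 3646 scaled TPM in R787G, against 431, 294 and 454 scaled TPM in WT, a log2 fold change of 3.14 ± 0.18 (SE; adjusted p = 1.21e-06). In all 3 genes WT replicate 2 was the lowest library. RPL24A, RPL21A, RPS8B, RPS17B, RPS26B and RPS7A were also among the 12, with log2 fold changes of 3.30, 3.20, 3.15, 3.12, 3.12 and 3.10 and adjusted p of 1.00e-06 to 2.05e-06. ASC1, the yeast RACK1 that sits on the small subunit and is in neither list, had 545, 557 and 656 scaled TPM in R787G, against 95.5, 64.4 and 106 scaled TPM in WT, a log2 fold change of 2.74 ± 0.19 (SE; adjusted p = 2.29e-06).

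The factors that build ribosomes rose with smaller changes. Of 58 small-subunit assembly factors 57 rose (median 0.89), and of 73 large-subunit assembly factors 68 rose (median 0.98). No member of either list fell. NOP56, a core protein of the snoRNPs that guide rRNA methylation, had 320.4, 321 and 339 scaled TPM in R787G, against 144, 96.8 and 87.3 scaled TPM in WT, a log2 fold change of 1.60 ± 0.19 (SE; adjusted p = 6.02e-05). NOP13, a nucleolar RNA-binding protein, had 98.7, 99.2 and 105 scaled TPM in R787G, against 30.5, 23.5 and 22.4 scaled TPM in WT, a log2 fold change of 1.96 ± 0.15 (SE; adjusted p = 3.25e-06). KRR1, needed for 18S rRNA synthesis, averaged 108 ± 1.18 scaled TPM in R787G and 35.7 ± 6.98 scaled TPM in WT (SD, n = 3 each), and its change was 1.59 ± 0.16 (SE; adjusted p = 1.62e-05). The median small-subunit assembly factor lay 0.92, 0.85 and 0.95 above its WT mean in the R787G libraries, against 0.31, 0.00051 and -0.32 in the WT libraries. The WT libraries thus spread more than the R787G libraries, and no library overlapped.

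PAC and RRPE are promoter elements known from ribosome assembly genes. The NOP56 promoter is shown because it holds both, and it changed most among the 50 small-subunit assembly genes that do. PAC was searched as GATGAG and RRPE as AAAATTT, on both strands, in the 300 bases before each coding start. Matches to RRPE and its reverse complement can overlap each other. PAC was found in 52 of 58 small-subunit and 62 of 73 large-subunit assembly promoters, against 18.6% of all 5896 promoters searched. RRPE was found in 55 of 58 and 70 of 73, against 24.8% of all promoters. The stretch runs from 197 to 78 bases before the start codon (chrXII:545900-546019, plus strand, R64), with both elements in capitals.
NOP56: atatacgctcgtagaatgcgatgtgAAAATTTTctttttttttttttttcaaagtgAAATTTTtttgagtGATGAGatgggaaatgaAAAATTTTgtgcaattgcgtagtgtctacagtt

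Other parts of the translation machinery moved the same way. Cytosolic aminoacyl-tRNA synthetases, which charge tRNAs, rose in 18 of 19 (median 0.62). Initiation factors rose in 24 of 28 (median 0.55), TIF11, which encodes eIF1A, with a change of 1.17 ± 0.10 (SE; adjusted p = 7.74e-06). Elongation and release factors rose in 10 of 13 and fell in 2. EFT2, elongation factor 2, had 1042, 1048 and 1128 scaled TPM in R787G, against 480.3, 356 and 342 scaled TPM in WT. HEF3, a paralog of elongation factor 3, went the other way, with 11.7, 13.1 and 10.9 scaled TPM in R787G, against 24.9, 30.3 and 30.4 scaled TPM in WT. Both changes passed the threshold, at 1.46 ± 0.16 (SE; adjusted p = 3.45e-05) and -1.19 ± 0.13 (SE; adjusted p = 2.67e-05).

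The Hsp70 chaperones of nascent chains SSB1 and SSB2 were among 6 of 7 ribosome-associated chaperones that rose. SSB1 had 795, 798 and 909 scaled TPM in R787G, against 298, 196 and 179 scaled TPM in WT, a log2 fold change of 1.92 ± 0.23 (SE; adjusted p = 5.76e-05). RNA polymerase I, which makes the large rRNA precursor, had 10 of 15 subunits and factors higher, RPA49 among them at 1.37 ± 0.17 (SE; adjusted p = 7.12e-05). RNA polymerase III, which makes tRNAs and 5S rRNA, had 10 of 19 higher and 1 lower, and 0 lower without the genes of chromosomes I and IX. RNA polymerase II had 2 of 7 higher, a share below that of all features, and only 1 of them when R787G replicate 1 or 3 or WT replicate 2 was left out. Among 12 regulators of ribosomal genes 2 rose and 5 fell. The corepressor CRF1 averaged 8.6 ± 1.45 scaled TPM in R787G and 32.5 ± 11.6 scaled TPM in WT (SD, n = 3 each), a change of -1.76 ± 0.22 (SE; adjusted p = 7.19e-05). STB3, a repressor that binds RRPE, averaged 42 ± 0.748 scaled TPM in R787G and 75.3 ± 4.45 scaled TPM in WT, a change of -0.82 ± 0.077 (SE; adjusted p = 1.22e-05). The 2 that rose have opposite roles. TOD6, a repressor that binds PAC, had 49.3, 45.3 and 52.9 scaled TPM in R787G, against 35.8, 29.4 and 17.8 scaled TPM in WT, a change of 0.86 ± 0.20 (SE; adjusted p = 0.00381). RAP1, the activator of ribosomal protein genes, averaged 31.1 ± 0.706 scaled TPM in R787G and 22.2 ± 2.01 scaled TPM in WT, a change of 0.47 ± 0.086 (SE; adjusted p = 7.97e-04).

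Mitochondrial ribosomal proteins, of the separate ribosome inside mitochondria, rose in 66 of 69 genes with a median of 0.56. MRP2, for a small-subunit protein, averaged 112 ± 2.16 scaled TPM in R787G and 52.2 ± 5.9 scaled TPM in WT (SD, n = 3 each), a change of 1.09 ± 0.10 (SE; adjusted p = 1.19e-05). Of 74 small nucleolar RNAs, the guides of rRNA modification, 19 rose and 1 fell, which is below the share of all features. Of the 19 rises, 1 met the filter on low values in R787G and not in WT. SNR56 had 50.4, 52 and 58.2 scaled TPM in R787G, against 6.67, 4.46 and 2.7 scaled TPM in WT, a log2 fold change of 3.34 ± 0.22 (SE; adjusted p = 1.64e-06), the largest rise named outside the ribosomal protein genes. The count of snoRNA rises was 29 on TPM as deposited.

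**Figure D3:**
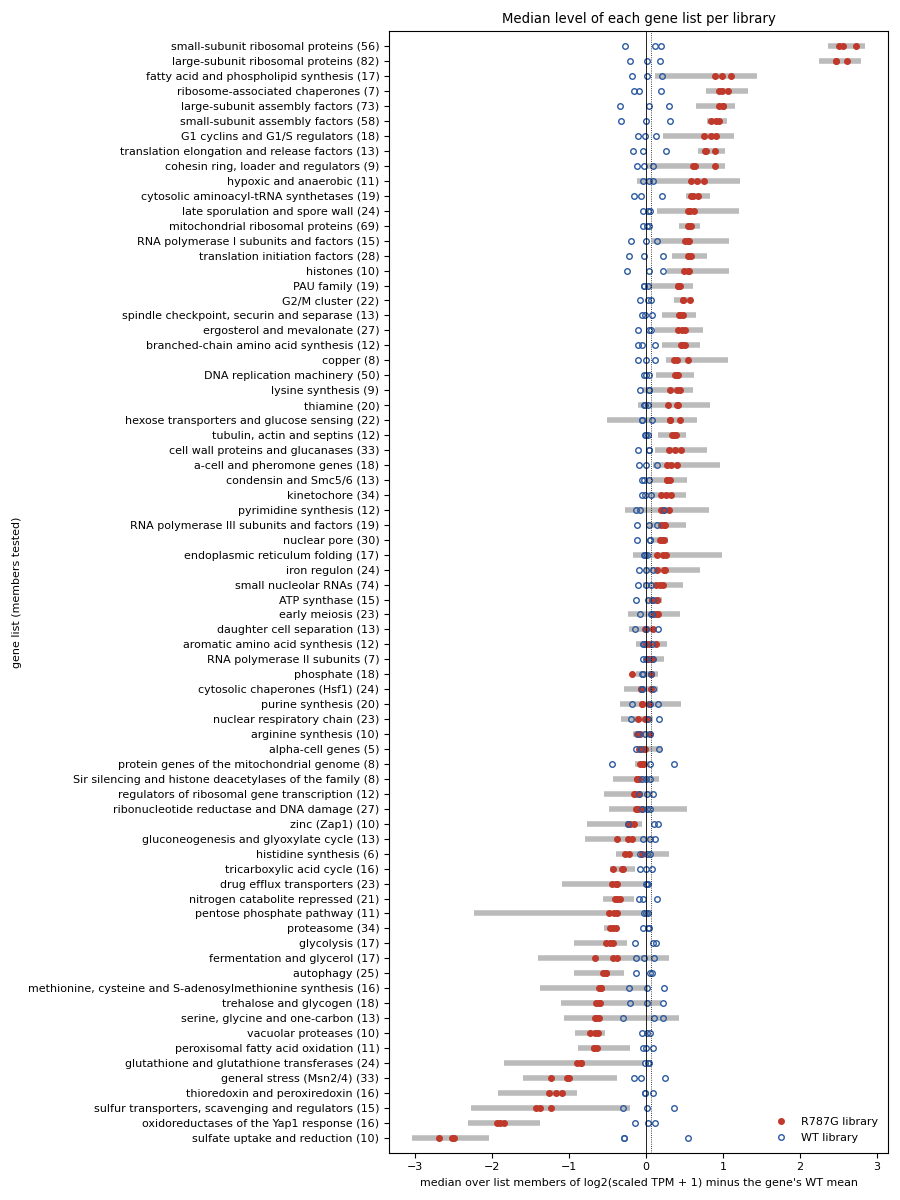
Median over the tested members of each of 74 lists of log2(scaled TPM + 1) minus the gene's WT mean, for R787G libraries (filled) and WT libraries (open), with grey bars for the middle 50% of the members' log2 fold changes and a dotted line at the median of all features (0.067). Ribosomal protein lists lie near 2.5 and sulfate uptake and reduction near -2.6 in the R787G libraries.

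Sulfate assimilation fell as a whole pathway. It imports sulfate and reduces it to sulfide for methionine and cysteine, and Cbf1 and Met4 activate its genes when sulfur amino acids are short. All 10 genes of uptake and reduction fell, with a median of -2.58. SUL2, a high-affinity sulfate permease, had 12.9, 12.9 and 10.8 scaled TPM in R787G, against 161, 181 and 265 scaled TPM in WT, a log2 fold change of -3.92 ± 0.43 (SE; adjusted p = 3.64e-05). MET16, which reduces activated sulfate to sulfite, had 53.9, 52 and 52.5 scaled TPM in R787G, against 477, 554 and 625 scaled TPM in WT, a log2 fold change of -3.35 ± 0.28 (SE; adjusted p = 5.71e-06). WT replicate 3 was the highest library for both.

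In the next steps of the pathway the picture was mixed. Of 16 genes for methionine, cysteine and S-adenosylmethionine, 10 fell and 2 rose. MET17, which incorporates sulfide into homocysteine, had 385, 385 and 305 scaled TPM in R787G, against 1631, 1459 and 1994 scaled TPM in WT, a log2 fold change of -2.23 ± 0.19 (SE; adjusted p = 7.49e-06). SAH1, which hydrolyses the S-adenosylhomocysteine left after methylation, had 756, 792 and 907 scaled TPM in R787G, against 286, 196 and 242 scaled TPM in WT, a log2 fold change of 1.77 ± 0.17 (SE; adjusted p = 1.30e-05). Sulfur transporters and regulators fell in 10 of 15. Among them MUP3, a low-affinity methionine permease, averaged 32 ± 4.27 scaled TPM in R787G and 211 ± 41.8 scaled TPM in WT (SD, n = 3 each), a change of -2.67 ± 0.20 (SE; adjusted p = 2.89e-06). MET31, a zinc-finger regulator of the pathway, was the 1 member that rose, at 0.68 ± 0.081 (SE; adjusted p = 5.39e-05).

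MET16 is shown as the sulfate gene with the largest change among the 6 of 10 whose promoter holds the Cbf1 site (CACGTG, its own reverse complement, in 3.61% of all promoters). All 6 were among the falls. The stretch runs from 203 to 148 bases before the start codon (chrXVI:877780-877835, minus strand, R64), with the Cbf1 site in capitals.
MET16: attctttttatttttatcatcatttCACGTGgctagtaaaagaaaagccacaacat

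Oxidant defence and detoxification held most of the largest falls. Yap1 is the best known activator of this response in yeast. Of the 12 falls named for size, AAD4 is in the list of oxidoreductases of the Yap1 response, GTT2 and ECM4 are in the glutathione list, TSA2 and SRX1 in the thioredoxin and peroxiredoxin list, and YHK8 and FLR1 in the drug efflux list. AAD4, a putative aryl-alcohol dehydrogenase, had 42.7, 36.3 and 44.7 scaled TPM in R787G, against 1473, 1613 and 984 scaled TPM in WT, a log2 fold change of -4.98 ± 0.37 (SE; adjusted p = 3.28e-06). GTT2, a glutathione transferase, had 63.3, 63.2 and 73.1 scaled TPM in R787G, against 1528, 1613 and 1257 scaled TPM in WT, a log2 fold change of -4.44 ± 0.32 (SE; adjusted p = 2.88e-06). TSA2, a cytosolic peroxiredoxin, had 26.2, 29.9 and 24 scaled TPM in R787G, against 450.5, 643 and 548 scaled TPM in WT, a log2 fold change of -4.30 ± 0.27 (SE; adjusted p = 1.27e-06). Each was lower in R787G, by 32.9-, 22- and 20.5-fold in the group means.

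Of 16 oxidoreductases of the Yap1 response 15 fell (median -1.91), as did 15 of 16 thioredoxin and peroxiredoxin genes (median -1.13). No member of either list rose. OYE3, an NADPH oxidoreductase, had 259.7, 276 and 293 scaled TPM in R787G, against 2573, 3029.9 and 2237 scaled TPM in WT, a log2 fold change of -3.23 ± 0.25 (SE; adjusted p = 3.71e-06). SRX1, the sulfiredoxin that repairs peroxiredoxins, had 5.18, 5.1 and 4.11 scaled TPM in R787G, against 92, 130.0 and 47.2 scaled TPM in WT, a change of -3.86 ± 0.32 (SE; adjusted p = 6.18e-06). Among 24 glutathione genes 15 fell and 2 rose. ECM4, an omega-class glutathione transferase, had 125, 134 and 131 scaled TPM in R787G, against 2321, 2968 and 1705 scaled TPM in WT, a change of -4.12 ± 0.26 (SE; adjusted p = 1.22e-06). OYE3, which was not named for size, did not overlap between the groups either.

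Drug efflux transporters fell in 14 of 23 and rose in 3. FLR1, which exports fluconazole and other drugs, had 115, 118 and 133 scaled TPM in R787G, against 2419, 3015 and 1949 scaled TPM in WT, a log2 fold change of -4.30 ± 0.27 (SE; adjusted p = 1.24e-06). YHK8, a presumed drug antiporter, had 12.6, 11.2 and 14.6 scaled TPM in R787G, against 374, 428 and 251 scaled TPM in WT, a log2 fold change of -4.64 ± 0.25 (SE; adjusted p = 1.00e-06). PDR12, which exports weak organic acids, was on the other side with 320.2, 313 and 277 scaled TPM in R787G, against 114, 77.2 and 124 scaled TPM in WT, a log2 fold change of 1.55 ± 0.18 (SE; adjusted p = 5.41e-05). The groups did not overlap for PDR12. CIS1, known from the response to stress at the mitochondrial import site, had 12.9, 14.6 and 13.2 scaled TPM in R787G, against 144, 146 and 185 scaled TPM in WT, a log2 fold change of -3.44 ± 0.30 (SE; adjusted p = 7.48e-06).

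GTT2 is shown as the largest change among the 8 of 24 glutathione genes with a Yap1 site (TTAGTAA or TTACTAA, which are each other's reverse complement, in 7.89% of all promoters). Of these 8, 7 fell. The site was found in fewer members of the neighbouring lists, 4 of 15 promoters of oxidoreductases of the Yap1 response, 2 of 16 of thioredoxin and peroxiredoxin genes and 3 of 23 of drug efflux transporters, so most members of these lists have no match in the window. The stretch runs from 123 to 67 bases before the start codon (chrXII:21906-21962, minus strand, R64), with the Yap1 site in capitals.
GTT2: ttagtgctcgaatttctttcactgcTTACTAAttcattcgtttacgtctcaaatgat

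General stress genes, which Msn2 and Msn4 activate through STRE elements, were lower in R787G. Of 33 genes 27 fell and 2 rose, with a median of -1.05. GRE1, a hydrophilin, had 281, 312 and 225 scaled TPM in R787G, against 1977, 2541 and 4117 scaled TPM in WT, a log2 fold change of -3.34 ± 0.34 (SE; adjusted p = 2.33e-05). HBT1, a shmoo-tip protein, had 68.2, 66.9 and 62.8 scaled TPM in R787G, against 296, 305 and 360.1 scaled TPM in WT, a log2 fold change of -2.26 ± 0.18 (SE; adjusted p = 4.43e-06). CTT1, the cytosolic catalase, which is not in this list, had 149, 135 and 132 scaled TPM in R787G, against 607, 521 and 1006 scaled TPM in WT, a log2 fold change of -2.29 ± 0.25 (SE; adjusted p = 3.68e-05). WT replicate 3 was the highest library for each, and none overlapped between the groups. TMA10, a ribosome-associated protein, was an exception that rose, at 0.76 ± 0.15 (SE; adjusted p = 0.00145).

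HBT1 is shown because its change was the largest among the 21 of 33 stress genes with a STRE (AGGGG on either strand, in 22.5% of all promoters). Of these 21, 20 fell and none rose. The stretch runs from 300 to 111 bases before the start codon (chrIV:60516-60705, minus strand, R64), with the STRE matches in capitals.
HBT1: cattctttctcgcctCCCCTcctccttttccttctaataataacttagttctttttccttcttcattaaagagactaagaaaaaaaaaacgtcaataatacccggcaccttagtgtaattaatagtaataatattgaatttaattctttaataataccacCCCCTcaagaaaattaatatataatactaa

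Storage carbohydrate genes fell in 10 of 18 and rose in 3. TPS1, trehalose-6-phosphate synthase, had 312, 345 and 303 scaled TPM in R787G, against 682, 773 and 912 scaled TPM in WT, a log2 fold change of -1.29 ± 0.12 (SE; adjusted p = 1.30e-05). GSY1, a glycogen synthase, averaged 21.6 ± 1.66 scaled TPM in R787G and 10.8 ± 1.61 scaled TPM in WT (SD, n = 3 each), and rose by 0.95 ± 0.14 (SE; adjusted p = 2.23e-04). Cytosolic chaperones of the Hsf1 response were split, with 4 of 24 higher and 6 lower, shares below those of all features. The sign of their median depended on the scaling. BTN2, which helps to sort aggregated proteins, had 386, 433 and 352 scaled TPM in R787G, against 114, 124 and 126 scaled TPM in WT, a log2 fold change of 1.67 ± 0.088 (SE; adjusted p = 9.63e-07). HSP30, a plasma membrane stress protein, averaged 241 ± 33.2 scaled TPM in R787G and 708 ± 57.9 scaled TPM in WT, a change of -1.55 ± 0.11 (SE; adjusted p = 2.23e-06). In the endoplasmic reticulum 8 of 17 folding genes rose and 4 fell. KAR2, its Hsp70, had 644, 692 and 639.7 scaled TPM in R787G, against 279, 272 and 279 scaled TPM in WT, a change of 1.25 ± 0.092 (SE; adjusted p = 2.99e-06), whereas ERO1, its disulfide-forming oxidase, had 351, 371 and 348 scaled TPM in R787G, against 992, 1130.1 and 787.5 scaled TPM in WT, a change of -1.43 ± 0.13 (SE; adjusted p = 9.63e-06).

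Genes of protein breakdown were lower in R787G in 3 lists. The proteasome, which degrades ubiquitinated proteins, had 30 of 34 genes lower and 0 higher, with a median of -0.42. RPT1, an ATPase of its regulatory particle, had 306, 323 and 311 scaled TPM in R787G, against 602, 645 and 529 scaled TPM in WT, a log2 fold change of -0.91 ± 0.075 (SE; adjusted p = 5.76e-06). RPN4, the transcription factor that activates proteasome genes, had 188, 196 and 183 scaled TPM in R787G, against 303, 378 and 284 scaled TPM in WT, a change of -0.75 ± 0.12 (SE; adjusted p = 2.94e-04). Autophagy genes fell in 18 of 25 and rose in 1. ATG31, a scaffold subunit of the initiation complex, averaged 26.1 ± 1.48 scaled TPM in R787G and 77.7 ± 7.6 scaled TPM in WT (SD, n = 3 each), a change of -1.53 ± 0.100 (SE; adjusted p = 1.47e-06). All 10 genes of the list of vacuolar proteases fell, with a median of -0.66. APE1, the vacuolar aminopeptidase that reaches its site by selective autophagy, had 92.4, 98 and 88.6 scaled TPM in R787G, against 959, 1069 and 867 scaled TPM in WT, a log2 fold change of -3.36 ± 0.15 (SE; adjusted p = 7.93e-07).

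RPT1 is shown as the largest change among the 27 of 34 proteasome genes with the Rpn4 site (GGTGGCAAA on either strand, in 1.22% of all promoters). Of these 27, 23 fell and none rose. The stretch runs from 180 to 122 bases before the start codon (chrXI:174033-174091, plus strand, R64), with the site in capitals.
RPT1: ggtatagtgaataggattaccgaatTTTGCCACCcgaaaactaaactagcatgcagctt

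Central carbon metabolism was lower at several points. Glycolysis genes fell in 13 of 17 and rose in 2. They held 3.94, 4.02 and 3.95% of all TPM in R787G, against 7.01, 5.51 and 6.69% in WT. TDH1, the glyceraldehyde-3-phosphate dehydrogenase of slow growth, had 585, 689 and 564 scaled TPM in R787G, against 5127, 4586 and 5769.6 scaled TPM in WT, a log2 fold change of -3.07 ± 0.18 (SE; adjusted p = 1.21e-06). GLK1, glucokinase, had 409, 449.9 and 367 scaled TPM in R787G, against 1313, 1444 and 1863 scaled TPM in WT, a log2 fold change of -1.90 ± 0.16 (SE; adjusted p = 6.09e-06). HXK1, a hexokinase, rose by 0.55 ± 0.12 (SE; adjusted p = 0.00227). The groups were separated for the shares and for these genes.

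The list of hexose transporters and glucose sensing genes changed in both directions, 11 higher and 7 lower of 22. Of the 11 rises, 3 met the filter on low values in R787G and not in WT. HXT2, a high-affinity transporter, had 75.4, 86.5 and 87.8 scaled TPM in R787G, against 11.9, 14.8 and 9.29 scaled TPM in WT, a log2 fold change of 2.72 ± 0.21 (SE; adjusted p = 4.34e-06). HXT5, a transporter of slow growth, had 33.4, 31.8 and 23.4 scaled TPM in R787G, against 250.2, 276 and 312 scaled TPM in WT, a change of -3.21 ± 0.26 (SE; adjusted p = 5.47e-06). HXT1, a low-affinity transporter, had 158, 154 and 175 scaled TPM in R787G, against 517, 492 and 431 scaled TPM in WT, a change of -1.55 ± 0.13 (SE; adjusted p = 5.89e-06). Neither HXT5 nor HXT1 overlapped between the groups. The rises numbered 7 after quantile normalization and 6 with a filter at 10 TPM.

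The tricarboxylic acid cycle had 10 of 16 genes lower and 1 higher, with CIT3, a mitochondrial citrate synthase, at -2.08 ± 0.14 (SE; adjusted p = 1.50e-06). In the nuclear respiratory chain 5 of 23 genes fell and 2 rose, shares below those of all features, and 10 fell without WT replicate 2. NDE2, an external NADH dehydrogenase, had 9.51, 10.5 and 7.7 scaled TPM in R787G, against 61.9, 81 and 85 scaled TPM in WT, a log2 fold change of -2.91 ± 0.19 (SE; adjusted p = 1.47e-06). CYC1, cytochrome c isoform 1, averaged 636 ± 46.9 scaled TPM in R787G and 433 ± 51.7 scaled TPM in WT (SD, n = 3 each), a change of 0.56 ± 0.11 (SE; adjusted p = 0.00141). ATP synthase genes rose in 5 of 15, a share near that of all features and a count that dropped to 1 to 3 when 1 of several libraries was left out (R787G replicates 1, 2 and 3: 2, 1 and 1; WT replicates 1 and 2: 3 and 1). In the pentose phosphate pathway 6 of 11 fell and 2 rose. GND2, the stress isoform of 6-phosphogluconate dehydrogenase, had 61.4, 63.7 and 49.6 scaled TPM in R787G, against 364, 433 and 469 scaled TPM in WT, a change of -2.84 ± 0.25 (SE; adjusted p = 9.18e-06). RKI1, ribose-5-phosphate isomerase, had 42.3, 40.2 and 45.5 scaled TPM in R787G, against 21.2, 14 and 12 scaled TPM in WT, a change of 1.42 ± 0.21 (SE; adjusted p = 2.47e-04).

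Amino acid and nucleotide synthesis did not move as one. Branched-chain amino acid genes rose in 9 of 12, among them BAT1, the mitochondrial aminotransferase, at 0.91 ± 0.13 (SE; adjusted p = 1.56e-04). Of 10 arginine genes 1 rose and 2 fell, shares below those of all features. CPA1, the small subunit of carbamoyl phosphate synthetase, had 325, 336 and 379 scaled TPM in R787G, against 624, 647 and 543 scaled TPM in WT, a change of -0.80 ± 0.10 (SE; adjusted p = 8.65e-05). Serine, glycine and one-carbon genes had 4 of 13 higher and 8 lower. MIS1, a mitochondrial enzyme of the folate cycle, averaged 108 ± 9.1 scaled TPM in R787G and 40.4 ± 8.27 scaled TPM in WT (SD, n = 3 each), a change of 1.41 ± 0.17 (SE; adjusted p = 6.54e-05). GCV1, a subunit of the glycine cleavage complex, averaged 84.8 ± 2.71 scaled TPM in R787G and 183 ± 44.5 scaled TPM in WT, a change of -1.07 ± 0.15 (SE; adjusted p = 1.72e-04).

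In purine synthesis 7 of 20 rose, a share near that of all features, and 9 fell. The falls numbered 4, 5, 4 and 4 without R787G replicate 2, R787G replicate 3, WT replicate 1 and WT replicate 3. IMD4, an IMP dehydrogenase of GTP synthesis, had 149, 149 and 159 scaled TPM in R787G, against 51.5, 27.8 and 34 scaled TPM in WT, a log2 fold change of 2.03 ± 0.22 (SE; adjusted p = 3.26e-05). ADE17, which acts late in the synthesis of IMP, had 172, 157 and 152 scaled TPM in R787G, against 384, 276 and 429 scaled TPM in WT, a log2 fold change of -1.15 ± 0.14 (SE; adjusted p = 6.50e-05). Both were separated between the groups. Pyrimidine genes rose in 6 of 12 and fell in 4. URA7, the major CTP synthase, had 127, 125 and 136 scaled TPM in R787G, against 41.9, 22.9 and 21.8 scaled TPM in WT, a change of 2.19 ± 0.24 (SE; adjusted p = 3.79e-05). URA8, the minor CTP synthase, had 89.2, 99.9 and 96.1 scaled TPM in R787G, against 124, 158 and 152 scaled TPM in WT, a change of -0.59 ± 0.100 (SE; adjusted p = 5.03e-04). The 2 CTP synthases thus moved in opposite directions. Genes under nitrogen catabolite repression fell in 13 of 21, with MEP1, an ammonium permease, at -1.30 ± 0.13 (SE; adjusted p = 1.66e-05).

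Lipid synthesis rose more often than it fell. INO1, inositol-3-phosphate synthase, the first step toward phosphatidylinositol, had 135, 171 and 139.9 scaled TPM in R787G, against 15, 15 and 20.5 scaled TPM in WT, a log2 fold change of 3.07 ± 0.14 (SE; adjusted p = 7.93e-07). ELO3, an elongase of very long fatty acids, had 212, 214 and 228 scaled TPM in R787G, against 71.4, 50.1 and 53.7 scaled TPM in WT, a log2 fold change of 1.90 ± 0.17 (SE; adjusted p = 1.06e-05). In the list of 17 fatty acid and phospholipid genes 10 rose and 2 fell, and of 27 ergosterol genes 19 rose and 3 fell. ERG3, a sterol desaturase, averaged 329.9 ± 7.74 scaled TPM in R787G and 137 ± 14.6 scaled TPM in WT (SD, n = 3 each), a change of 1.27 ± 0.11 (SE; adjusted p = 6.44e-06). Peroxisomal fatty acid oxidation fell in 8 of 11 and rose in 1, with SPS19, a dienoyl-CoA reductase, at -1.46 ± 0.13 (SE; adjusted p = 9.88e-06).

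Cell wall proteins and glucanases rose in 20 of 33 and fell in 3. UTR2, which links chitin to glucan, had 285, 291 and 326 scaled TPM in R787G, against 59.8, 52.8 and 58.6 scaled TPM in WT, a log2 fold change of 2.38 ± 0.18 (SE; adjusted p = 3.09e-06). GAS3, of the family of glucan-elongating enzymes, had 59.4, 59.2 and 56.4 scaled TPM in R787G, against 12.4, 12.4 and 12.8 scaled TPM in WT, a log2 fold change of 2.13 ± 0.099 (SE; adjusted p = 7.93e-07). PST1, a wall protein of the cell integrity response, was lower with 393, 429 and 463 scaled TPM in R787G, against 998, 990.4 and 757 scaled TPM in WT, a change of -1.08 ± 0.15 (SE; adjusted p = 1.74e-04). PTR2, the transporter of di- and tripeptides, had 72.4, 73.1 and 76.5 scaled TPM in R787G, against 13.7, 11.8 and 12.7 scaled TPM in WT, a change of 2.45 ± 0.20 (SE; adjusted p = 5.09e-06). The groups did not overlap for GAS3 and PST1.

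Metal and vitamin genes changed in subsets. FET3, the multicopper oxidase of high-affinity iron uptake, had 183, 182 and 198 scaled TPM in R787G, against 30.9, 39.8 and 50 scaled TPM in WT, a log2 fold change of 2.22 ± 0.15 (SE; adjusted p = 1.59e-06). FIT2, a wall mannoprotein that retains iron, had 119, 138 and 106 scaled TPM in R787G, against 20.3, 28.7 and 30.8 scaled TPM in WT, a change of 2.16 ± 0.17 (SE; adjusted p = 4.22e-06). The iron regulon as a list had 11 of 24 genes higher and 4 lower, the regulator AFT2 among the falls at -1.28 ± 0.097 (SE; adjusted p = 3.42e-06). Copper genes rose in 5 of 8, 1 of them having met the filter on low values in R787G and not in WT. Zinc genes controlled by Zap1 fell in 5 of 10 and rose in 2. ZRT2, the low-affinity zinc transporter, had 115, 108 and 105 scaled TPM in R787G, against 314, 354 and 351 scaled TPM in WT, a change of -1.62 ± 0.068 (SE; adjusted p = 7.93e-07), while ZPS1, a zinc- and pH-regulated surface protein, had 564, 519 and 779 scaled TPM in R787G, against 365, 239 and 127 scaled TPM in WT, a change of 1.45 ± 0.41 (SE; adjusted p = 0.0109).

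THI4, which makes the thiazole of thiamine, had 294, 304 and 225 scaled TPM in R787G, against 26.8, 31.3 and 31.2 scaled TPM in WT, a log2 fold change of 3.15 ± 0.27 (SE; adjusted p = 6.36e-06). The thiamine list rose in 11 of 20 and fell in 3. Hypoxic genes, repressed by Rox1 when oxygen is present, rose in 6 of 11 and fell in 2. Of the 6 rises, 2 met the filter on low values in R787G and not in WT. The summed share of TPM of this list was lower in R787G, at a mean of 0.0283% against 0.0386% in WT. ROX1 itself had 97.1, 89.3 and 99.9 scaled TPM in R787G, against 279, 309.6 and 232 scaled TPM in WT, a log2 fold change of -1.50 ± 0.11 (SE; adjusted p = 2.97e-06). ANB1, the hypoxic form of translation factor eIF5A, had 17.3, 19.2 and 18 scaled TPM in R787G, against 1.23, 0.878 and 1.94 scaled TPM in WT, a change of 3.05 ± 0.18 (SE; adjusted p = 1.21e-06). TIR1, an anaerobic wall mannoprotein, had 5.34, 6.96 and 6.91 scaled TPM in R787G, against 0.545, 0.506 and 0.559 scaled TPM in WT. It met the filter on low values in R787G and not in WT, so its values are given without a test. DAN4, another anaerobic wall gene, was lower at -1.71 ± 0.14 (SE; adjusted p = 5.87e-06). In the PAU family, 5 genes were below the filter, and 8 of the 19 tested rose and 1 fell. The rises were 42.1%, near the 36.5% of all features, and 3 of them met the filter in R787G and not in WT.

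Cell cycle genes of G1/S and of DNA replication were higher in R787G. In bulk RNA, more cells in a phase and more RNA per cell cannot be told apart. Of 18 G1/S genes 14 rose and none fell, with a median of 0.84. Of the 14 rises, 1 met the filter on low values in R787G and not in WT. POL30, the sliding clamp PCNA, had 110.1, 109.7 and 118 scaled TPM in R787G, against 23.1, 25.8 and 36.1 scaled TPM in WT, a log2 fold change of 1.98 ± 0.18 (SE; adjusted p = 9.67e-06). RNR1, the large subunit of ribonucleotide reductase, had 107, 107 and 113 scaled TPM in R787G, against 32.9, 29.7 and 34 scaled TPM in WT, a change of 1.73 ± 0.14 (SE; adjusted p = 6.18e-06). Neither gene overlapped between the groups. CLB6, an S-phase cyclin, had 7.04, 7.66 and 8.22 scaled TPM in R787G, against 0.922, 0.95 and 1.65 scaled TPM in WT, given without a test because it met the filter in R787G and not in WT. The replication machinery rose in 34 of 50 genes and fell in 3, ORC5, of the origin recognition complex, among the falls at -0.85 ± 0.090 (SE; adjusted p = 2.66e-05).

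POL30 is shown as the largest change among the 23 of 50 replication genes with an MCB element (ACGCGT, its own reverse complement, in 3.54% of all promoters), the site of the G1/S factor MBF. Of these 23, 20 rose and none fell. Among the 18 genes of the G1/S list, 1 promoter held MCB. The stretch runs from 220 to 165 bases before the start codon (chrII:425931-425986, minus strand, R64), with MCB in capitals.
POL30: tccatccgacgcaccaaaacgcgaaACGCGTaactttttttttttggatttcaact

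DNA damage genes were split, with 9 of 27 higher, a share near that of all features, and 11 lower. HUG1, a damage-induced inhibitor of ribonucleotide reductase, had 30.3, 27.7 and 21.9 scaled TPM in R787G, against 3.28, 6.16 and 5.33 scaled TPM in WT, a log2 fold change of 2.24 ± 0.21 (SE; adjusted p = 1.32e-05). RAD59, of recombination repair, had 19, 19.7 and 17.6 scaled TPM in R787G, against 62.8, 69.6 and 116 scaled TPM in WT, a change of -2.03 ± 0.31 (SE; adjusted p = 2.83e-04). Histone genes rose in 6 of 10 and G2/M genes in 18 of 22, with CLB2, the main mitotic cyclin, at 0.91 ± 0.10 (SE; adjusted p = 4.39e-05). Of 13 genes for the spindle checkpoint, securin and separase 10 rose, PDS1, securin, at 1.03 ± 0.13 (SE; adjusted p = 7.24e-05), and 2 fell, among them MAD2 at -0.39 ± 0.076 (SE; adjusted p = 0.00119).

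Kinetochore genes rose in 17 of 34 and fell in 2, and genes of condensin and Smc5/6 rose in 7 of 13. YCS4, a condensin subunit, averaged 32.2 ± 1.5 scaled TPM in R787G and 16.6 ± 0.68 scaled TPM in WT (SD, n = 3 each), a change of 0.91 ± 0.086 (SE; adjusted p = 1.26e-05). ASK1, of the DASH complex that couples kinetochores to microtubules, averaged 29.9 ± 1.71 scaled TPM in R787G and 54.9 ± 1.21 scaled TPM in WT, a change of -0.86 ± 0.060 (SE; adjusted p = 2.22e-06). Among the Sir genes and related deacetylases 2 of 8 rose and 4 fell. SIR4, a structural silencing protein, averaged 24.4 ± 1.29 scaled TPM in R787G and 36.1 ± 1.39 scaled TPM in WT, a change of -0.55 ± 0.056 (SE; adjusted p = 2.33e-05). Tubulin, actin and septin genes rose in 9 of 12.

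HO, the mating-type switching endonuclease, had 30.6, 26.4 and 31.8 scaled TPM in R787G, against 4.85, 3.02 and 3.59 scaled TPM in WT, a log2 fold change of 2.68 ± 0.22 (SE; adjusted p = 5.56e-06). The list of a-cell and pheromone genes rose in 11 of 18 and fell in 2. Of these 11 rises, 2 met the filter on low values in R787G and not in WT. Late sporulation genes, normally silent in vegetative cells, rose in 17 of 24 and fell in 2. SPO19, a meiotic prospore protein, had 14.5, 13.2 and 11.2 scaled TPM in R787G, against 1.4, 1.41 and 1.18 scaled TPM in WT, a log2 fold change of 2.58 ± 0.15 (SE; adjusted p = 1.21e-06). GAS2, a spore wall enzyme, had 37.7, 36 and 36.5 scaled TPM in R787G, against 6.56, 7.78 and 4.66 scaled TPM in WT, a log2 fold change of 2.39 ± 0.20 (SE; adjusted p = 5.76e-06). SPS100, a spore wall protein, was lower with 23.7, 19.2 and 13.1 scaled TPM in R787G, against 222, 208 and 338 scaled TPM in WT, a change of -3.71 ± 0.24 (SE; adjusted p = 1.34e-06). Of the 24 members tested, 3 met the filter in R787G and not in WT, and all 3 are among the rises. With a filter at 10 TPM, 6 sporulation rises were counted.

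Promoters with these motifs were called in different proportions over the whole genome. Of all 5784 nuclear coding genes tested, 36.9% were higher and 31.6% lower in R787G. With PAC the shares were 51.0% and 21.5%, with RRPE 48.9% and 22.3%, and with MCB 59.9% and 15.0%. With STRE they were 23.9% and 46.5%, with the Yap1 site 26.7% and 41.5%, and with the Cbf1 site 29.0% and 41.4%. With the Rpn4 site 4.17% were higher and 75% lower, which is 54 of 72 genes. The shares with PAC were 50.3% and 21.8% outside the ribosomal protein lists. That still includes the assembly factors with PAC, of which 51 of 52 small-subunit and 59 of 62 large-subunit genes rose. The 72 genes with the Rpn4 site include 27 of the proteasome list, 23 of them lower. The motif shares thus partly repeat the lists above. These motif matches are descriptions of letters in a window, and no binding was measured.

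**Figure D4:**
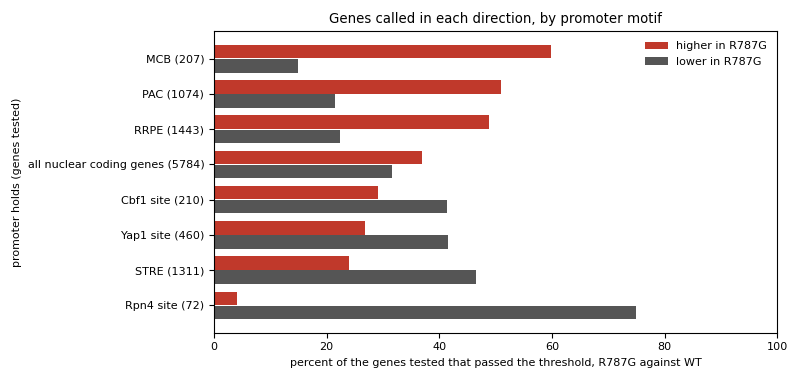
Percent of tested nuclear coding genes past the threshold, higher (red) and lower (grey) in R787G than in WT, for all genes and for genes whose promoter holds each motif, with the number of genes in brackets. MCB, PAC and RRPE genes are more often higher than lower, and Rpn4-site, STRE, Yap1-site and Cbf1-site genes more often lower than higher.

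Shares were also taken by position along the chromosome. Within 10 kb of a centromere, where cohesin is densest in yeast, 33.7% of 172 genes were higher and 30.8% lower, against 37.7% and 31.7% of 4236 genes over 100 kb away. Within 20 kb of a chromosome end 36.9% of 198 genes were higher and 23.2% lower. Spliced genes were higher in 54.9% of 266 cases, but outside the ribosomal protein lists in 32.2% of 177 cases, against 35.5% of unspliced genes. By mean level over R787G and WT, in 5 groups of like size, the lowest group had 40.7% higher and 20.1% lower, and the highest group 37.4% higher and 39.5% lower. Of the 498 features of no annotated class, which include doubtful reading frames, 175 rose (35.1%) and 44 fell (8.84%). Over all features the shares were 36.5% and 29.3%, so the rises were near that share and the falls below it.

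R787G was also compared directly with the other variant, G1242V. In this contrast 46.2% of features passed the threshold, with 1693 features higher in R787G (26.3%) and 1279 lower (19.9%). Rises made up 57.0% of the calls. That share was 75.5% on unscaled TPM and 73.5% on TPM rescaled to nuclear coding genes, settings that put the median of all features at 0.16 and 0.15 in place of 0.050. Both variants' own comparisons with WT share the WT libraries, so their values are only set side by side. HIS3, the plasmid marker, had 813, 1109 and 803 scaled TPM in R787G, against 1955, 2413 and 1907 scaled TPM in G1242V, a log2 fold change of -1.21 ± 0.19 (SE; adjusted p = 0.00103), and the part of this difference in the values below was not tested.

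In R787G 58 of 58 small-subunit and 72 of 73 large-subunit assembly factors were higher than in G1242V. Their median changes against WT were 0.89 and 0.98 in R787G and -0.047 and -0.069 in G1242V. For the ribosomal proteins themselves, 17 of 82 large-subunit and 10 of 56 small-subunit genes were higher in R787G, shares below that of all features. The medians against WT were 2.53 in R787G and 2.16 in G1242V for the large subunit. DHR2, a nucleolar helicase of 18S rRNA processing, had 23, 22.5 and 22.3 scaled TPM in R787G, against 7.35, 9.43 and 5.22 scaled TPM in G1242V, a log2 fold change of 1.53 ± 0.22 (SE; adjusted p = 6.96e-04). DBP2, a DEAD-box helicase, had 145, 136 and 146 scaled TPM in R787G, against 49, 57.3 and 33.2 scaled TPM in G1242V, a change of 1.63 ± 0.24 (SE; adjusted p = 7.88e-04).

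URA7, the CTP synthase, had 127, 125 and 136 scaled TPM in R787G, against 45.8, 50 and 29.3 scaled TPM in G1242V, a change of 1.65 ± 0.24 (SE; adjusted p = 8.68e-04). AAH1, adenine deaminase of purine salvage, had 27.2, 26.3 and 28.6 scaled TPM in R787G, against 7.0, 8.39 and 5.9 scaled TPM in G1242V, the largest named rise over G1242V at 1.82 ± 0.20 (SE; adjusted p = 2.72e-04). Genes lower in R787G than in G1242V included those of respiration and storage. Respiratory chain genes were lower in 22 of 23, ATP synthase genes in 15 of 15 and trehalose and glycogen genes in 14 of 18. FMP45, a membrane protein of the eisosome family, had 16.8, 14.7 and 13.5 scaled TPM in R787G, against 71.2, 83 and 117 scaled TPM in G1242V, a log2 fold change of -2.49 ± 0.19 (SE; adjusted p = 8.95e-05). CTT1, the catalase, had 149, 135 and 132 scaled TPM in R787G, against 557, 569 and 964 scaled TPM in G1242V, a change of -2.27 ± 0.25 (SE; adjusted p = 3.04e-04). ADE17 had 172, 157 and 152 scaled TPM in R787G, against 634, 592 and 665 scaled TPM in G1242V, a change of -1.97 ± 0.14 (SE; adjusted p = 4.78e-05), and ICY1 had 61, 47 and 50.6 scaled TPM in R787G, against 239, 212 and 212 scaled TPM in G1242V, a change of -2.05 ± 0.14 (SE; adjusted p = 3.97e-05).

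Against the empty vector, 39.9% of features passed the threshold, with 1087 features higher in R787G (16.9%) and 1477 lower (23%). Rises made up 42.4% of the calls. That share was 21.5% on unscaled TPM and 13.2% on TPM rescaled to nuclear coding genes, with medians of all features of -0.18 and -0.28 in place of -0.051. With 2 NULL libraries, leaving out either left 1098 or 1121 calls. SCC2 itself had 100.4, 132 and 105 scaled TPM in R787G, against 23.9 and 22.5 scaled TPM in NULL, a log2 fold change of 2.22 ± 0.14 (SE; adjusted p = 6.52e-05), where NULL has no plasmid copy. Ribosomal protein genes were higher in R787G in 79 of 82 large-subunit and 55 of 56 small-subunit cases. Assembly factors were higher in 2 of 58 and 2 of 73. Their medians against WT were 0.89 and 0.98 in R787G, and 0.70 and 0.74 in NULL. Oxidoreductases of the Yap1 response were low in all 3 groups, with medians against WT of -1.91 in R787G, -1.72 in G1242V and -1.77 in NULL. Of these 16 genes, 6 were lower and 2 higher in R787G than in G1242V, and 7 lower and 1 higher than in NULL. For sulfate uptake and reduction the medians against WT were -2.58, -1.43 and -1.97. By library, these medians were -2.04, -1.96 and -0.62 in G1242V and -1.99 and -1.94 in NULL. G1242V replicates 1 and 2 thus lay near NULL, and replicate 3 did not.

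Energy metabolism separated R787G from NULL as well. Respiratory chain genes were higher in R787G in 20 of 23, ATP synthase genes in 15 of 15 and glycolysis genes in 14 of 17. ADH4, an alcohol dehydrogenase regulated by zinc, had 522, 516 and 593 scaled TPM in R787G, against 66.2 and 66.3 scaled TPM in NULL, a log2 fold change of 3.01 ± 0.37 (SE; adjusted p = 7.45e-04). ZRT1, the high-affinity zinc transporter, had 1830.1, 1703 and 1778 scaled TPM in R787G, against 537 and 548 scaled TPM in NULL, a change of 1.70 ± 0.18 (SE; adjusted p = 5.42e-04). On the other side, late sporulation genes were lower in R787G in 21 of 24 and early meiosis genes in 15 of 23. SSA4, a stress-induced Hsp70, had 312, 347 and 259 scaled TPM in R787G, against 989.9 and 1014 scaled TPM in NULL, a log2 fold change of -1.72 ± 0.19 (SE; adjusted p = 5.67e-04). ULI1, induced by the unfolded protein response, had 31.1, 30.4 and 23.7 scaled TPM in R787G, against 132 and 129 scaled TPM in NULL, a change of -2.17 ± 0.11 (SE; adjusted p = 2.39e-05). GID10, a substrate receptor of the GID ubiquitin ligase, had 20.7, 22.9 and 23.2 scaled TPM in R787G, against 61.4 and 65.2 scaled TPM in NULL, a change of -1.47 ± 0.22 (SE; adjusted p = 0.00127).

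**Figure D5:**
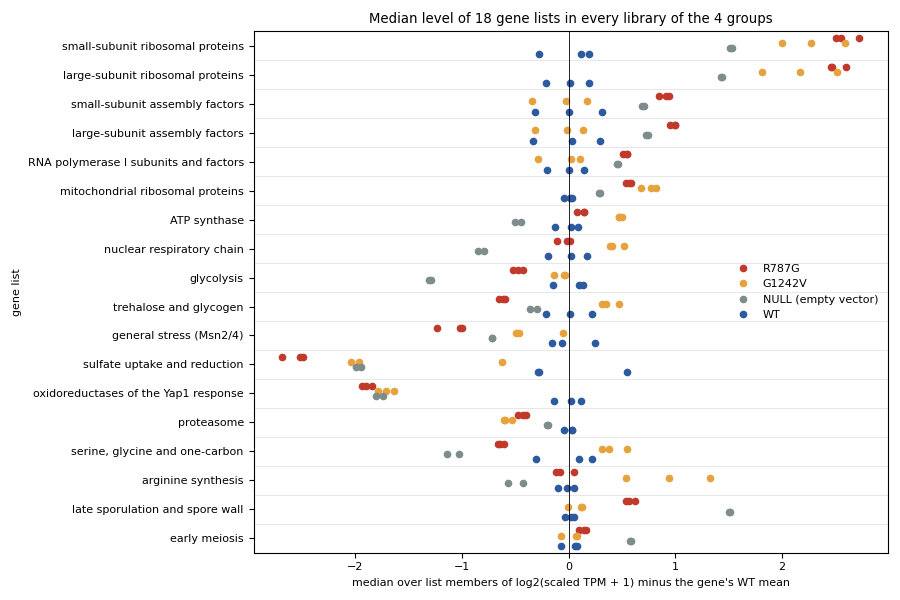
Median over the tested members of 18 lists of log2(scaled TPM + 1) minus the gene's WT mean, one point per library, for R787G, G1242V, NULL (empty vector) and WT from top to bottom within each list. For the assembly factors the R787G points lie above those of G1242V, and for ATP synthase, respiratory chain and glycolysis they lie between those of G1242V and NULL.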

How the data were processed

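Stranded libraries from total RNA, depleted of ribosomal RNA, were sequenced as short single reads, per the labels' protocols. The submitters' processing notes list the tools RSEM, edgeR, STAR and bcl2fastq 2.17, with sacCer3 as build. Which annotation and strand setting the counting used was not given in the sources used here, so values of overlapping genes are uncertain. The authors deposited TPM for each feature in each library. TPM keep no depth, so no count model was used and counting error is unknown. As shares of a total, they fall for other genes where some class takes more.

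Of 7036 table rows, 1 with shifted fields was left out. The R64 annotation, the assembly of sacCer3, held 5955 features under the same locus tag and 126 under the same symbol. The remaining 954 were used under the table's own IDs. A median-of-ratios factor, taken over 5221 genes at 10 TPM or more in each library, scaled the TPM of each library. Features at 1 TPM or more in 2 or more libraries, 6432 in all, entered limma 3.58.1 in R 4.3.3 as log2(scaled TPM + 1), with eBayes and a trend, two-sided, and Benjamini-Hochberg adjustment over all features of a contrast at a threshold of 0.05. The fit held all 11 libraries in 4 groups and no covariates. Promoters are the 300 bases before the coding start in R64.

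The comparison and the 74 gene lists were chosen with earlier results of these data known, so lists are described by counts and medians without a test. Named were SCC2, SCC4 and HIS3; the 12 largest rises, 12 largest falls and 12 largest rises outside ribosomal protein genes against WT; the 8 largest each way against G1242V and NULL; and up to 2 rises and 2 falls per list. Genes ranked by size had to have a standard symbol, libraries of both groups apart, and a mean of 10 scaled TPM or more on the higher side. Some are left out for length, and 1 is not reported here.

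On simulated data, over 6275 genes, the test recovered 53.8% of log2 changes of 0.5 and 93.0% of log2 changes of 1. These were changes between R787G and WT, with 2.83% and 5.52% false calls. The simulation changed only a small set of genes, all at higher levels, with independent noise. In the real contrast 65.8% of features were called, low ones included, so these shares do not carry over to it. Each result was recomputed on unscaled TPM, on TPM rescaled to nuclear coding genes, after quantile normalization, with other pseudocounts and filters, without the trend, with only the groups compared, with the replicate number as a block, without chromosomes I and IX and without each library in turn. The division of genes by the mean of R787G and WT was added after seeing the data. Matplotlib 3.10.9 under Python 3.11.15 drew the plots.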

Additional observations from a re-analysis of the deposited data

How the results depend on the processing

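For R787G against WT, the counts called, higher, lower and at least 2-fold changed stayed within 1.5 times of the reported values under every alternative run. The total was 3828 to 4277, and with single libraries left out 3828 to 4186. The same replicate numbers did not mark pairs (r of the deviations of same-numbered R787G and WT libraries 0.11, 0.031 and -0.16), and the fit with the replicate number as a block called 4277 features. Against G1242V the falls numbered 797 on unscaled TPM and 809 on TPM rescaled to nuclear coding genes, and at least 2-fold changes 176 to 384 with 1 library left out, the lowest without G1242V replicate 3. Against NULL the rises and falls numbered 645 and 2362 on unscaled TPM, and 463 and 3051 when rescaled to nuclear coding genes. At least 2-fold changes against NULL were 175 after quantile normalization and 185 with a pseudocount of 5. With only R787G and NULL in the fit, 4122 features were called, 1833 higher and 2289 lower. Leaving out 1 library gave 1098 to 1972 calls against NULL, 501 to 865 higher and 596 to 1117 lower.

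Of 301 results for single genes, 34 lost the call with their sign kept under at least 1 alternative, and 8 changed sign under at least 1. Apart from COX9, no gene among the 34 is named in the text. Of the genes that changed sign, all are given here. Over the fits without 1 library the change of SCC2 against WT ran from -0.11 to 0.097 (-0.063 and -0.016 without WT replicates 2 and 3) and that of HIS3 from -0.047 to 0.27 (-0.017 without R787G replicate 2). ZRT1 ran from -0.35 to 0.037 and gave 0.15 after quantile normalization, and SSA4 ran from -0.021 to 0.33. JLP1 ran from -0.23 to 0.038 (0.013 without WT replicate 2) and gave 0.0029 on unscaled TPM. LSO1 ran from -0.37 to 0.066 (0.037 without R787G replicate 3). After quantile normalization COX9 gave -0.022 and COX1 0.054 (adjusted p = 0.869 and 0.557 in limma), so both lost their call with the change of sign. The cause of these changes was not tested. Of 74 list medians, 12 changed sign under some alternative (ATP synthase, respiratory chain, mitochondrial genome, arginine, aromatic amino acids, purines, Hsf1 chaperones, hexose transporters, phosphate, daughter cell separation, alpha-cell genes and early meiosis). Of the 148 counts of list members higher or lower, 53 moved by over 1.5 times under at least 1 alternative, so counts of single lists are less steady than the totals. Depth is unknown, which limits what can be said of genes at low levels.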
